A study of Mus musculus with 12 samples.

Results

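The comparison described here is the depletion of Prmt5 in cultured neural progenitor cells (NPC) of the mouse embryonic cortex, taken by its label as the NPC libraries of the series: 3 treated with ethanol and 3 with 4-hydroxytamoxifen (4-OHT), 6 of the 12 libraries in all. Cells came from cortices of E14.5 embryos with the genotype Prmt5 F/F ER on a mixed background of C57BL/6 and 129S1/SvlmJ, and grew as neurospheres with 20 ng/ml of EGF and 20 ng/ml of basic FGF. On day 4 they received 50 nM 4-OHT, or the same volume of ethanol, for 24 h before they were split. Both arms carry this genotype, in which 4-OHT induces the knockout per the labels, and no library is labelled as 4-OHT-treated cells without it, so the drug and the loss of Prmt5 cannot be told apart. The labels do not spell out what ER stands for, and the sources used here do not give the promoter that drives it or the time from treatment to RNA extraction. The labels do not say whether the 3 libraries of an arm came from separate cultures or embryos, so any spread between them may be technical.

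PRMT5 is the main enzyme that places symmetric dimethyl marks on arginines. Its substrates include the Sm proteins that form the core of the spliceosomal snRNPs, and also histones, and the U1 snRNP reads an intron's 5' splice site by base pairing. Progenitors in neurosphere culture divide under EGF and FGF, and p53 can halt that division or trigger death. Mdm2 and Mdm4 hold p53 in check.

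The expression table holds the authors' RPKM, a read density scaled to transcript length and sequencing depth, with 1 value per arm, so no spread between libraries can be given for a gene. It lists only genes whose deposited p was under 0.05 and whose levels differed by more than 1.5-fold, and "rose" and "fell" below mean that a gene is in that table. A gene outside it may be unchanged, untested or short of either limit. Log2 values were recomputed from the RPKM, as 4-OHT over ethanol. The sources used here do not give the total reads of a library. Prmt5 fell from 33.4 to 4.92 RPKM, a log2 of -2.76. The cell label cannot be checked here, since only genes that differed between the arms have a value. Of 33 markers of neural progenitors and radial glia, 2 are listed, the Notch effector Hes5 and the transcription factor Gli3, at 15.8 and 3.38 RPKM with ethanol. Listed markers of fibroblasts and meninges (3 of 25) did not pass 0.666 RPKM with ethanol and those of immune cells (2 of 26) did not pass 0.569. All of these were listed as higher with 4-OHT, which favours low ethanol values, and the unlisted ones have no value. Some listed markers of astrocytes and neurons stood higher with ethanol, such as Aldh1l1 at 67.7 and Syt11 at 81.0 RPKM.

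In all, 2416 genes are listed, 1367 higher with 4-OHT (56.6%) and 1049 lower (43.4%). The split turned with the level of expression. Among the 674 genes whose higher arm was under 1 RPKM, 80.6% rose, against 63.2% of 574 genes at 1 to 5 RPKM and 44.7% of 689 at 5 to 20 RPKM. Among 398 genes at 20 to 100 RPKM 30.9% rose, and among the 81 at 100 RPKM or more 37%. Where the higher arm reached 20 RPKM, 153 of 479 genes rose (31.9%) and 326 fell (68.1%), so the lists below are read against both backgrounds. These are bulk samples, in which fewer cells of a type and less RNA per cell cannot be told apart.

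**Figure D1:**
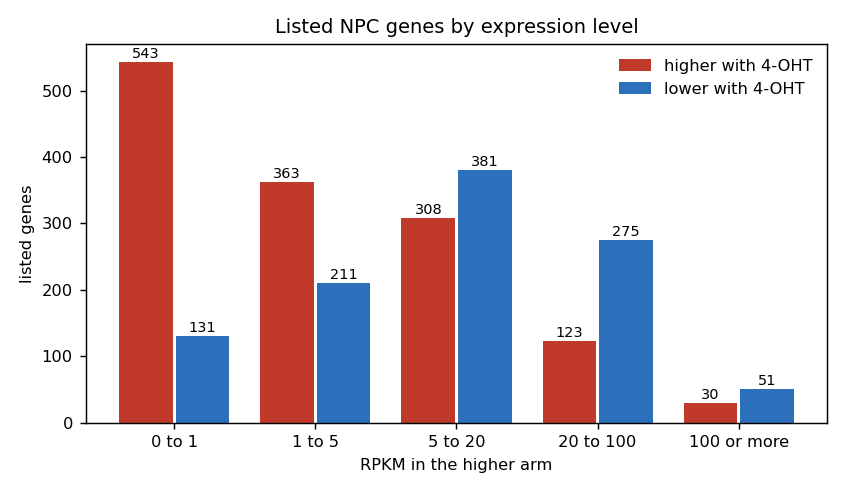
Number of listed NPC genes (vertical axis) by RPKM in the higher of the 2 arms (horizontal axis), higher with 4-OHT in red and lower in blue. Rising genes outnumber falling ones 543 to 131 under 1 RPKM, and falling genes outnumber rising ones 275 to 123 at 20 to 100 RPKM.

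Among the listed genes with the highest RPKM, named after their values were seen, were falling and rising ones. The tubulin gene Tuba1b fell from 850 to 488 RPKM, prothymosin alpha, Ptma, from 618 to 385 RPKM, and the histone variant gene H2afz from 459 to 235 RPKM. The nucleosome-binding gene Hmgn2 and the nucleolar gene Npm1 fell from 322 to 186 and from 304 to 193 RPKM. On the rising side were the insulin-like growth factor binding protein gene Igfbp2, from 369 to 642 RPKM, the metallothionein Mt3, from 299 to 521 RPKM, and the tetraspanin Cd81, from 308 to 478 RPKM. The lysosomal protease gene Ctsd rose from 97.2 to 195 RPKM, and was 1 of 4 listed among 56 lysosome and autophagy genes, with Ctsf, Wipi1 and Ctsh, which also rose.

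Among genes whose higher arm reached 20 RPKM, the largest rise was that of Cryab, a small heat shock protein gene, from 2.79 to 22.6 RPKM. Pla2g7, which encodes a hydrolase of platelet-activating factor, rose from 31.9 to 121 RPKM (log2 1.92), and the sodium pump subunit gene Atp1b1 from 10.1 to 32.6 RPKM (log2 1.69). Abat, which encodes the enzyme that breaks down GABA, rose from 8.92 to 27.7 RPKM. Ndrg4, Dcxr, Anxa5, Angpt2 and Mxd4, a partner of MAX, rose with log2 values between 1.45 and 1.73. After Prmt5 the largest falls in this range were those of D2Ertd750e, now named Knstrn, a spindle gene, with a log2 of -1.53, and of Acat2, at -1.37. The phospholipid enzyme gene Lpcat1 fell from 53.9 to 21.3 RPKM, Snn from 92.5 to 37.5 RPKM, and the histone chaperone gene Asf1b from 21.7 to 9.33 RPKM. Taf15, which encodes an RNA-binding protein of the FET family, fell from 74.8 to 32.5 RPKM and Hirip3 from 41.1 to 17.9 RPKM.

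Cholesterol synthesis genes fell together. Of 28 genes of sterol synthesis and its control, 19 are listed and 19 were lower, with a median log2 of -0.87, where 43.4% of all listed genes and 68.1% of those at 20 RPKM or more were lower. Early in the pathway, the acetoacetyl-CoA thiolase gene Acat2 fell from 128 to 49.8 RPKM, the mevalonate kinase gene Mvk from 34.4 to 19.1 RPKM, and the decarboxylase gene Mvd from 43.6 to 19.5 RPKM. The isomerase gene Idi1 fell from 116 to 59.4 RPKM and the farnesyl diphosphate synthase gene Fdps from 85.7 to 46.3 RPKM. Of the later steps, lanosterol synthase, Lss, fell from 46.7 to 25.2 RPKM, and the reductase gene Dhcr7 from 79.8 to 49.8 RPKM. Tm7sf2 shares its entry with another gene, 1110014N23Rik, so its fall from 33.7 to 15.0 RPKM cannot be given to it alone. Control genes were among them too: Srebf1, a transcription factor of lipid synthesis, fell from 29.9 to 19.5 RPKM, and Insig1, which restrains that factor family, from 93.5 to 62.1 RPKM. The fatty acid synthase gene Fasn, outside the list, fell from 97.3 to 40.0 RPKM.

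Genes of DNA replication and mitosis fell without a listed exception. Of 73 replication genes 55 are listed and 55 were lower (median log2 -0.85), and of 104 mitosis genes 86 are listed and 86 were lower (median log2 -0.78). Over all listed genes 43.4% were lower, and over those at 20 RPKM or more 68.1%. Within replication, 26 of 28 genes of polymerases, clamp and chromatin assembly fell, among them the polymerase delta gene Pold1, from 25.7 to 11.7 RPKM, and the primase gene Prim1, from 40.0 to 20.4 RPKM. Of the origin licensing and helicase genes 18 of 22 fell, including Mcm2, from 64.1 to 33.8 RPKM, and Mcm6, from 87.2 to 47.6 RPKM. Of the nucleotide supply genes 11 of 23 fell, such as Shmt1, from 29.4 to 14.8 RPKM, and the ribonucleotide reductase gene Rrm1, from 113 to 74.4 RPKM. Within mitosis the counts were 24 of 29 cyclin and kinase genes, 42 of 51 kinetochore and spindle genes and 20 of 24 chromosome structure genes. Cdkn3, a phosphatase of cyclin-dependent kinases, fell from 15.0 to 5.59 RPKM, the centromere gene Cenpm from 20.0 to 9.22 RPKM, the motor gene Kif11 from 52.3 to 27.7 RPKM and the condensin gene Smc4 from 64.7 to 33.9 RPKM. The G1 genes were split: 10 of 13 listed fell, such as the repressors E2f7 and E2f8 with log2 values of -1.11 and -0.92, while Cdkn2b, an inhibitor of the D-cyclin kinases, rose from 2.31 to 4.57 RPKM alongside Ccnd1 and Ccnd2. Of 91 DNA repair genes 44 are listed, 40 of them lower, such as the abasic site nuclease gene Apex1, from 95.1 to 45.2 RPKM, and the Fanconi gene Fancl, from 7.15 to 3.34 RPKM. Where an absolute log2 of at least 1 was required, the share of repair genes that were higher went from 9.09% to 42.9%. Ercc5, Mgmt and Parp3 then remained as higher and Recql, Fancl, Apex1 and Neil3 as lower. The same limit left 680 higher and 181 lower genes of all those listed.

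Promoters of these falling genes were read from RefSeq (GRCm38), over 250 bases before and 50 after the start, for 4 short motifs on both strands. The 4 motifs and the 3 lists they were run on were chosen after the lists' values were seen, and every share is given. A match describes letters and is not a binding site. A promoter was found for 73 of the 86 mitosis genes. Of these 64.4% held TTTGAA, the core of the cell cycle genes homology region (CHR), against 18.5% of 17492 protein-coding genes with a promoter. A gene was counted where any of its promoters held the motif. CCAAT was held by 72.6% against 42.3%, the E2F letters GCGGGAA by 13.7% against 6.84%, and the sterol element letters TCACNCC by 13.7% against 18.2%. Of the 55 replication genes 45 had a promoter: 35.6% held the E2F letters, 60% CCAAT, 15.6% TTTGAA and 17.8% TCACNCC, against the same backgrounds. For the sterol genes the check is void, since 14 of 19 had a promoter, under the 80% required. The shares of those 14 were 92.9% for CCAAT, 21.4% for the E2F letters, 14.3% for TCACNCC and 7.14% for TTTGAA, and nothing is read from them. The example shown for each list is the gene with the highest ethanol RPKM among those whose last 150 bases before the start hold the motif, in capitals: TTTGAA in either strand for the topoisomerase gene Top2a (159 to 75.3 RPKM, chr11:99024190-99024339, minus strand) and GCGGGAA in either strand for Rrm1 (chr7:102441545-102441694, plus strand).
Top2a promoter: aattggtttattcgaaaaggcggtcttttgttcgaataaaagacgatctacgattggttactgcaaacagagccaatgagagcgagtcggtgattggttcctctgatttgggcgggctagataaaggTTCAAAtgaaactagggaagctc
Rrm1 promoter: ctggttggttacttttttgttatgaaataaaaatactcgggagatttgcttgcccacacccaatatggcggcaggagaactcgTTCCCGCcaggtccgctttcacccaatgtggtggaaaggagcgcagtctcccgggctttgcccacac

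The listed ligands, receptors and early targets of the growth factor pathways that the culture medium feeds rose. Of 48 genes of EGF, FGF and ERK signalling, 14 are listed and 14 were higher (median log2 1.09), against 56.6% of all listed genes. In 10 of them the higher arm reached 1 RPKM, and of all listed genes under that level 80.6% were higher. Of the ligands, Hbegf rose from 4.01 to 12.1 RPKM, Fgf1 from 4.47 to 12.4 RPKM, amphiregulin, Areg, from 0.471 to 1.54 RPKM and Nrg1 from 0.609 to 1.29 RPKM. Fgfr2, a receptor, rose from 2.37 to 3.87 RPKM. The immediate early gene Fos rose from 4.08 to 8.79 RPKM and Egr2 from 0.852 to 1.5 RPKM. The feedback genes Dusp5, an ERK phosphatase, and Lrig1, which lowers EGF receptor levels, rose from 1.05 to 1.69 and from 55.5 to 83.9 RPKM. Of the 14 genes, Ereg and Fosb stayed at or under 0.108 RPKM in both arms.

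Of 61 genes of the p53 pathway 30 are listed and 29 were higher (median log2 1.30). Over all listed genes 56.6% were higher, and over those at 20 RPKM or more 31.9%. By role, 6 of 14 arrest genes, 9 of 16 death genes, 11 of 21 genes of metabolism and repair and 3 of 10 regulators rose. Among those of metabolism, the sestrin gene Sesn2 rose from 19.1 to 47.6 RPKM, adenylate kinase Ak1 from 27.3 to 65.9 RPKM, and Phlda3, an inhibitor of AKT, from 26.4 to 59.6 RPKM. Of the death genes, Trp53inp1 rose from 25.4 to 67.0 RPKM and the death receptor gene Tnfrsf10b from 2.53 to 9.69 RPKM. The listed exception was Fdxr, a mitochondrial reductase gene that p53 can induce, which fell from 5.36 to 3.25 RPKM. Rchy1, an E3 ligase gene, rose from 22.6 to 34.7 RPKM. The list shares Tap1, Sesn2, Ercc5 and Epha2 with other lists described here.

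The stress genes divided by branch, where 56.6% of all listed genes were higher. Of 36 genes of amino acid supply and ATF4, 17 are listed and 17 were higher (median log2 1.13), among them the cystine transporter gene Slc7a11, from 1.92 to 5.20 RPKM, Ddit4, an inhibitor of mTORC1, from 16.4 to 42.5 RPKM, and the cytokine gene Gdf15, from 1.27 to 5.16 RPKM. Of 20 unfolded protein response genes 4 are listed and 3 fell: Sdf2l1, from 15.9 to 7.84 RPKM, Xbp1, from 20.4 to 12.7 RPKM, and the disulfide isomerase gene Pdia6, from 151 to 98.4 RPKM. Of 16 heat shock genes, Cryab and Hspb8 rose and Hspa1b fell. The chaperone gene Dnajb9 rose from 6.28 to 9.96 RPKM. Whether the branches differ was not tested.

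Of the markers of cell types that progenitors give rise to, most of the listed members rose, and most members are not listed. Over all listed genes 56.6% rose, and over those under 1 RPKM in the higher arm 80.6%. All 13 listed of 28 astrocyte markers were higher (median log2 1.22), and 12 of them reached 1 RPKM in the higher arm. Apoe, a lipid carrier gene, stood at 21.2 and 60.0 RPKM with ethanol and 4-OHT, and Sparcl1 at 48.9 and 118 RPKM. Lower levels were those of the water channel gene Aqp4, at 1.00 and 2.32 RPKM, Gfap, at 0.221 and 1.10 RPKM, and Gjb6, at 0.0170 and 0.0821 RPKM. Clu, another lipid carrier gene, rose from 2.69 to 9.96 RPKM. Of 24 oligodendrocyte markers 9 are listed and 8 rose, with the myelin gene Mbp going from 2.35 to 10.4 RPKM. Of 48 neuron markers 14 are listed, 11 higher and 3 lower. Tubb3 rose from 4.81 to 9.59 RPKM, and the kinase gene Camk2b from 33.1 to 65.8 RPKM, while Elavl2 fell from 6.24 to 3.03 RPKM. The summed level of the whole marker lists cannot be given, since unlisted members have no value here. The 3 listed of 24 vessel and mural markers were higher as well, with Notch3 at 6.52 and 10.5 RPKM and Flt1 and Tek at or under 0.140 RPKM, and so were the listed fibroblast and immune markers, such as Mmp2, at 0.666 and 2.38 RPKM. The part of other cell types in these results was not tested.

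Signalling genes of progenitor upkeep moved in both directions. Over all listed genes 56.6% rose, and over those under 1 RPKM in the higher arm 80.6%. Of 32 Notch pathway genes 7 are listed: Hes5, Nrarp, Mfng and Dll3 fell, with log2 values of -1.73, -1.21, -1.05 and -0.62, and the ligands Jag1 and Jag2 and the receptor Notch3 rose, with 0.77, 0.75 and 0.69. Jag2 was low, at 0.117 and 0.197 RPKM. Of 42 Wnt pathway genes 5 rose, among them Wnt5a and Fzd1, and the receptor gene Fzd9 and Nkd2 fell, Nkd2 from 0.429 to 0.205 RPKM. Of 26 BMP and Id genes, Id1, Smad9 and the antagonist gene Fst are listed and rose, and only Id1 reached 1 RPKM. Smad9 went from 0.178 to 0.282 RPKM and Fst from 0.345 to 0.946 RPKM. Of 15 Hedgehog genes, Cdon and Gli3 fell and Shh, the ligand, rose from 0.0505 to 0.50 RPKM. Matrix and adhesion genes were 18 higher and 3 lower of 72, with Sparc going from 32.9 to 71.4 RPKM and the integrin gene Itgb5 from 16.9 to 38.7 RPKM, and the brevican gene Bcan, of the brain matrix, from 122 to 78.3 RPKM. Axon guidance genes were 9 higher and 4 lower of 62. Of 39 genes of interferon and antigen presentation 9 rose, among them the peptide transporter genes Tap1 and Tap2, while the class I genes H2-K1 and H2-D1 fell from 28.1 to 18.0 and from 11.7 to 7.70 RPKM, the entry of H2-D1 being shared with LOC547349. At 1 RPKM or more 60% of the listed genes of this list were higher, and at 5 RPKM or more 33.3%. For matrix and adhesion the share higher went from 85.7% to 57.1% at 5 RPKM or more.

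**Figure D2:**
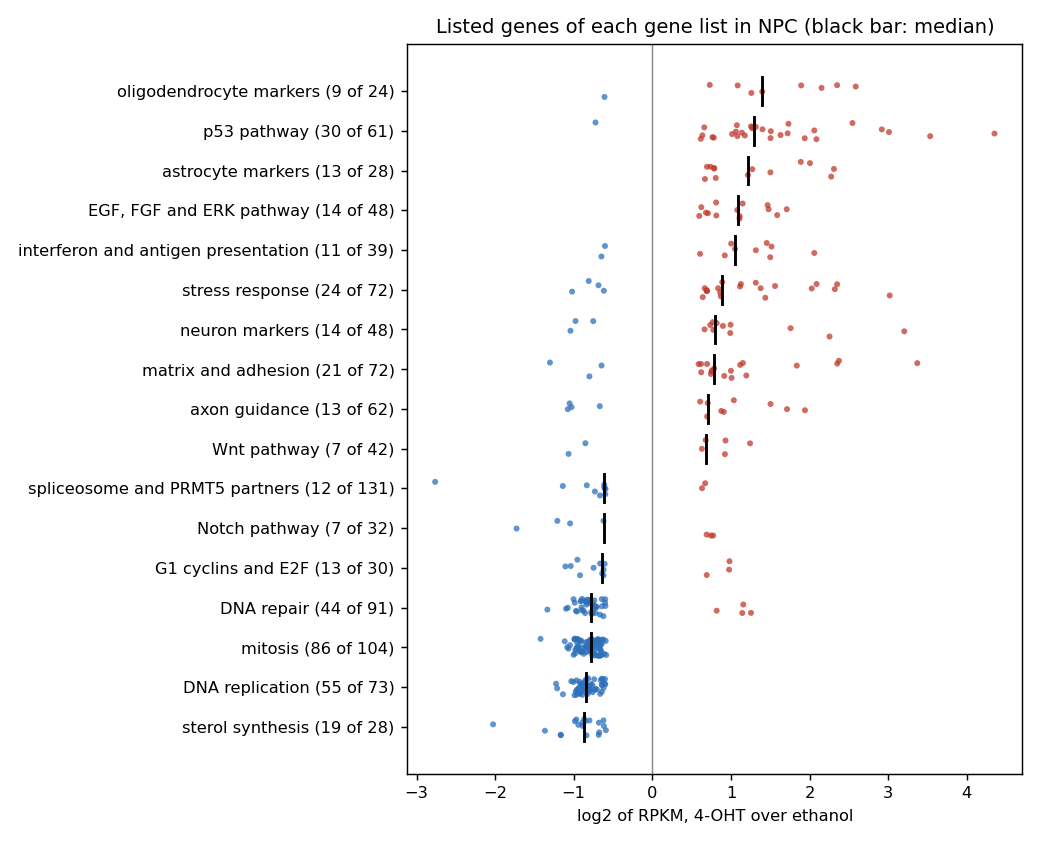
Log2 of RPKM, 4-OHT over ethanol (horizontal axis), of each listed gene in the gene lists with at least 5 listed members, with points jittered vertically, rising genes in red, falling genes in blue and the median as a black bar. Numbers in brackets are listed and all members, and the gap around 0 is the 1.5-fold limit of the deposited table. Replication, mitosis and sterol genes lie wholly to the left and growth factor and astrocyte genes wholly to the right.

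Of 131 genes of the spliceosome and the partners of PRMT5, 12 are listed, 10 lower and 2 higher. The 10 include Prmt5, the gene knocked out. The 2 higher were the snRNP genes Snrnp200, from 43.3 to 69.0 RPKM, and Prpf3, from 17.6 to 27.3 RPKM. Over all listed genes 43.4% were lower, and over those at 20 RPKM or more 68.1%. Besides Prmt5 the listed genes of Sm proteins and their assembly were Gemin6 and the Sm protein gene Snrpf, which fell from 34.4 to 22.6 RPKM. Ptbp1, a repressor of neuronal exons, fell from 73.9 to 48.4 RPKM, and Prmt3, another arginine methyltransferase gene, from 21.1 to 13.9 RPKM.

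Splicing was deposited as MATS output, in which each row sets 1 ethanol library beside 1 4-OHT library under a pair code (24, 26 or 28) and gives the reads of the inclusion and exclusion form, the inclusion level, the fraction of transcripts that hold the exon or intron after correction for length. An event is in the table when its level differed by over 0.2 with a deposited p under 0.05 in at least 2 pairs. There are 255 events in 222 genes, 158 with higher inclusion (62%) and 97 with lower (38%). Of these 59 are listed in 3 pairs and 196 in 2, and for the latter the remaining pair has no value here. In all 59 events with 3 pairs the libraries of the 2 arms did not overlap (100%), which the listing itself favours. Within a pair the median number of reads behind an event was 65 in both arms for pair 24, 136 and 135.5 for pair 26, and 78 and 91.5 for pair 28. In 58 events an arm of a listed pair had under 20 reads.

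By class, nearly all retained introns rose and most skipped exons fell, and whether classes differ was not tested. Retained introns were 79 higher and 3 lower (96.3% higher, against 62% of all events), and skipped exons were 51 higher and 84 lower (37.8% higher). Alternative 5' splice sites were 14 higher and 6 lower, alternative 3' splice sites 10 and 2, and mutually exclusive exons 4 and 2. Over the 26 retained introns with higher inclusion in 3 pairs, the median level was 0.131, 0.132 and 0.154 in the ethanol libraries and 0.452, 0.445 and 0.467 in the 4-OHT libraries of pairs 24, 26 and 28. The 26 include an intron of Prmt5, the gene knocked out. For 17 exons with lower inclusion, the Prmt5 exon left out, it was 0.709, 0.682 and 0.724 with ethanol and 0.407, 0.393 and 0.40 with 4-OHT. For 9 exons with higher inclusion it was 0.397, 0.397 and 0.343 with ethanol and 0.755, 0.736 and 0.666 with 4-OHT. These are medians over events chosen for their difference, and single events spread more between libraries, as given below.

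**Figure D3:**
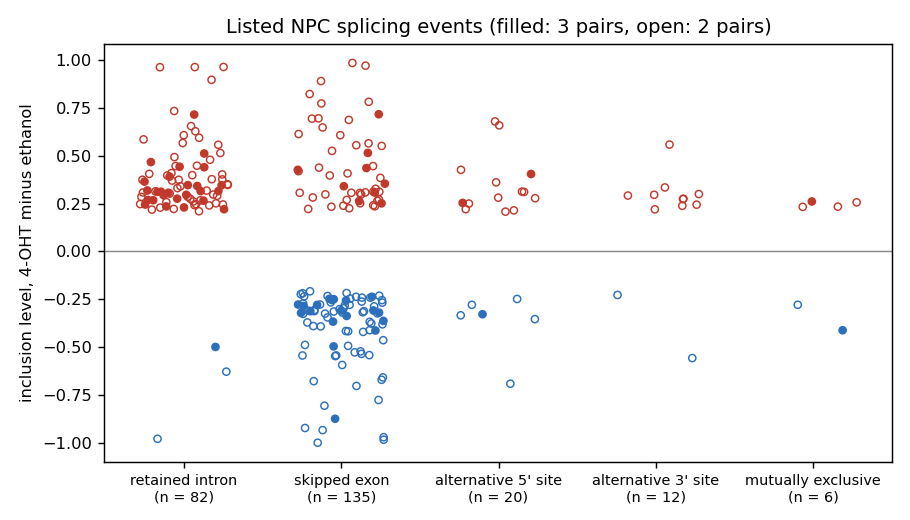
Mean difference in inclusion level, 4-OHT minus ethanol (vertical axis), of each of the 255 listed events by class (horizontal axis), filled where listed in 3 pairs and open where listed in 2. The empty band around 0 is the limit of 0.2, and 79 of 82 retained introns lie above it.

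The retained introns with the largest differences, among those listed in 3 pairs with at least 20 reads in each library (up to 6 by rule), are shown by their 5' splice sites, whose letters are compared with those of annotated introns below. Each is given from GENCODE (GRCm38) as the last 3 exon bases and the first 6 intron bases in capitals, followed by 17 bases of intron. Ccdc106, in which retention was lower, is given for contrast.
Dvl1, intron 3: CCAGTAAGGccccttgcgggggcaga
Rabl2, intron 6: ATGGTGGGGccatccctgcacctggg
Cep110, intron 41: AAGGTTGCCtcttaaaaaaccagaga
Rrnad1, intron 6: AGAGTGAGGtctggggaggctcccca
Prmt5, intron 2: GGGGTAGGGaccatcccctgtgcccc
Ccdc106, intron 4: GGGGTGAGTggggagtgggtacatgt
In the same order they lie at chr4:155853756-155853781, plus strand, chr15:89584256-89584281, minus strand, chr2:35175598-35175623, plus strand, chr3:87924924-87924949, minus strand, chr14:54516474-54516499, minus strand and chr7:5059703-5059728, plus strand. All 6 introns lie between coding exons.

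Dvl1 encodes Dishevelled, which relays Wnt signals. Its intron 3 of a 15-exon transcript (224 bases, 155227868 to 155228091 of chromosome 4 in mm9) had levels of 0.128, 0.174 and 0.161 with ethanol and 0.628, 0.644 and 0.592 with 4-OHT in pairs 24, 26 and 28, from 0.154 ± 0.024 to 0.621 ± 0.027 (SD, n = 3). The arms did not overlap, and neither did they in the other events named here that have 3 pairs, which the listing itself favours. For each of them the two-sided p of an exact permutation of the 6 libraries is 0.1, the smallest it allows. The intron of Rabl2, a small GTPase gene of the cilium (271 bases, 89414439 to 89414709 of chromosome 15 in mm9), went from 0.191, 0.204 and 0.215 to 0.424, 0.732 and 0.782, so pair 24 rose less than the others. Cep110, now named Cntrl, encodes centriolin of the centrosome, and its intron (527 bases, 35031121 to 35031647 of chromosome 2 in mm9) went from 0.199, 0.205 and 0.209 to 0.592, 0.598 and 0.743. Rrnad1 started high, at 0.634, 0.556 and 0.626, and reached 1, 0.911 and 1, with 0 exclusion reads in 2 of the 4-OHT libraries. The Prmt5 intron went from 0.034, 0.037 and 0.050 to 0.384, 0.442 and 0.468, on fewer reads with 4-OHT (40, 90 and 72) than with ethanol (125, 183 and 102). Per the labels 4-OHT knocks out Prmt5 itself, so how far this intron compares with those of other genes cannot be told. In Ccdc106 the level fell from 1, 0.470 and 0.520 to 0.175, 0.113 and 0.204, where the level of 1 rests on 45 inclusion reads and 0 exclusion reads.

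The introns with higher retention could be matched to GENCODE for 77 of 79, and 72 of these lie between coding exons. Their median length was 224 bases, against 289 for 14444 annotated introns that another transcript of the same gene retains. Each 5' splice site was compared with the most frequent base of those annotated introns at 9 positions, the last 3 of the exon and the first 6 of the intron. The retained introns matched at 5.27 ± 0.98 positions (SD over 77 introns) and the annotated ones at 5.99 ± 1.14 (SD over 14444 introns), or 5.91 for the 9548 of up to 500 bases. Without the intron of Prmt5, the gene knocked out, the mean was 5.28 over 76 introns. At most 4 matches were found in 24.7% against 8.06%, and at least 7 in 10.4% against 32.6%. At position +3 of the intron 33.8% against 49.7% held the frequent base (45.5% of those of up to 500 bases), and the share was also lower at -1 (66.2% against 78.7%, or 79% of those of up to 500 bases), +4 (50.6% against 62.2%), +5 (63.6% against 74%), +6 (29.9% against 42.8%) and -2 (46.8% against 58.3%), but not at -3 (37.7% against 36.7%). For the 25 matched introns listed in 3 pairs the mean was 4.96. Of the sites shown above, Rabl2, Cep110 and Rrnad1 matched at 4 positions, Prmt5 at 5, and Dvl1 and Ccdc106 at 6. These shares are descriptions without a test, and the measure was chosen after the events were seen.

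**Figure D4:**
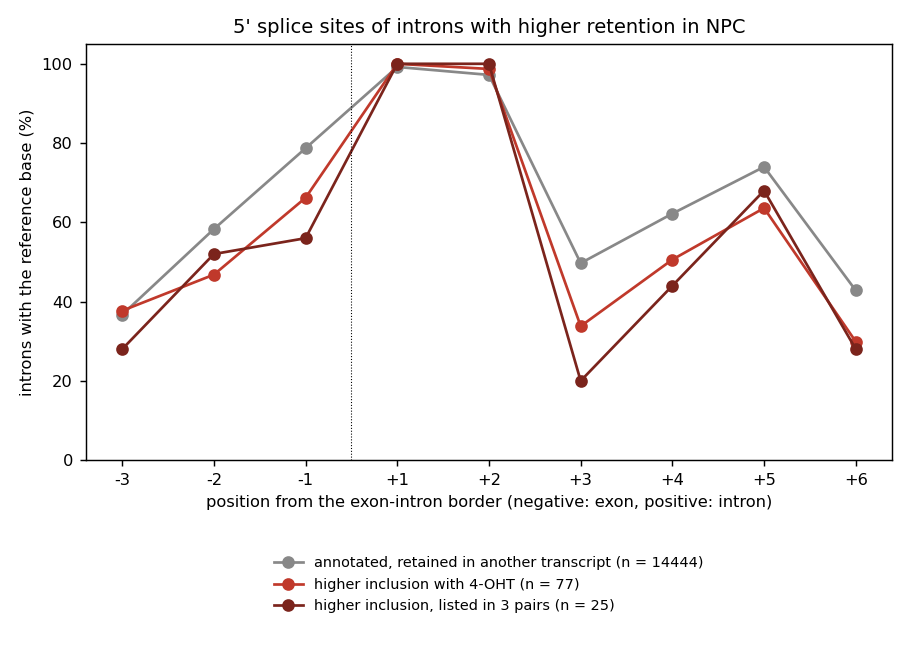
Share of introns with the most frequent base of annotated retained introns (vertical axis, percent) at each of 9 positions around the exon-intron border (horizontal axis), for annotated introns (grey), introns with higher retention in NPC (red) and those listed in 3 pairs (dark red). At position +3 the shares are 49.7% and 33.8% for the annotated introns and the 77 introns with higher retention.

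Cassette exons moved both ways, and the coding exons with the largest differences are shown with the exon of Mdm4, whose product holds p53 in check, so that length and reading frame can be seen. Capitals mark the last 3 bases, next to the 5' splice site. In order they lie at chr1:133004654-133004721, minus strand, chr19:5464334-5464431, plus strand, chr10:91153278-91153397, minus strand, chr11:80257514-80257636, plus strand and chr1:57393670-57393694, minus strand (GRCm38, matched through GENCODE).
Mdm4, exon 6: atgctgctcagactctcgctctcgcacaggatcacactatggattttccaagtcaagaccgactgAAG
Fibp, exon 9: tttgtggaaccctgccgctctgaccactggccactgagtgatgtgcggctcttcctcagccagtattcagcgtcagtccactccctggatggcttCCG
Tmpo, exon 5: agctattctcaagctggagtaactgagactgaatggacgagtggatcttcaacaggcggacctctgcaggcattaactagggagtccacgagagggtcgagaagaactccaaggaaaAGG
Rhot1, exon 20: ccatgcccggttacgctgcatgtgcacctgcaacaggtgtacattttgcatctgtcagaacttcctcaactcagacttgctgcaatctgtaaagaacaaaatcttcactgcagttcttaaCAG
1110034B05Rik, exon 5: taggaagaactccttcactgggAAG

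The Mdm4 exon is 68 bases long, which is not a multiple of 3, and is exon 6 of 11. Its inclusion level was 0.673, 0.740 and 0.717 with ethanol and 0.431, 0.512 and 0.476 with 4-OHT, a mean difference of -0.24 (exact permutation test, two-sided p = 0.1, the smallest for 3 against 3). Every ethanol library lay above every 4-OHT library. The arms were apart in all 59 events listed in 3 pairs (100%), which the listing itself favours, so this p adds no support. Mdm4 is not among the listed genes, while Mdm2 rose from 18.3 to 38.7 RPKM. A pair of overlapping exon events in Mdm2 that share their exclusion reads is listed in pairs 24 and 28 and lower in both: the first went from 0.919 and 0.840 to 0.473 and 0.454, and the second from 0.959 and 0.913 to 0.692 and 0.621. The ethanol levels of these events rest on 1 and 3 exclusion reads.

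Fibp encodes a protein that binds FGF1 inside the cell, and its 98-base exon fell from 0.883, 0.823 and 0.844 to 0.450, 0.416 and 0.444. In Tmpo, which encodes lamina-associated polypeptides, the 120-base exon fell from 0.860, 0.845 and 0.855 to 0.496, 0.509 and 0.466, on at least 342 reads a library. Tmpo is also listed as lower in expression, from 118 to 72.5 RPKM. Inclusion rose for the 123-base exon of Rhot1, a mitochondrial GTPase gene, from 0.504, 0.402 and 0.332 to 1, 0.665 and 0.635, where the level of 1 rests on 29 reads. A 25-base exon of 1110034B05Rik, now named Tyw5, a tRNA modification enzyme gene, rose from 0.103, 0.146 and 0.091 to 0.467, 0.580 and 0.60. A longer form of that exon, 110 bases, shares its exclusion reads and rose from 0.120, 0.102 and 0.039 to 0.333, 0.432 and 0.518. In Tmem234 a 219-base exon of the 3' UTR rose from 0.397, 0.397 and 0.366 to 0.755, 0.770 and 0.914, and the gene has 5 listed events, all higher. The exclusion reads of that exon with 4-OHT were 3, 5 and 1.

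In matched cassette exons the end and the frame were counted. The last base was G in 75.9% of 58 coding exons with lower inclusion and in 79.2% of 24 with higher inclusion, against 80% of 165016 annotated internal coding exons. A length that is a multiple of 3 was found in 48.3%, 54.2% and 41.1%. Among alternative 5' splice sites, 3 events met the rule for naming. Luc7l, which encodes a protein of the U1 snRNP, used the longer exon form at levels of 0.434, 0.311 and 0.512 with ethanol and 0.850, 0.804 and 0.817 with 4-OHT, where exclusion reads fell from 15, 48 and 14 to 3, 10 and 7. Tia1, which encodes an RNA-binding splicing factor, went from 0.131, 0.151 and 0.178 to 0.353, 0.380 and 0.488. Neto2, an auxiliary subunit gene of kainate receptors, went the other way, from 0.649, 0.550 and 0.687 to 0.360, 0.284 and 0.257. In all 3 genes the 2 arms did not overlap, which the listing itself favours.

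**Figure D5:**
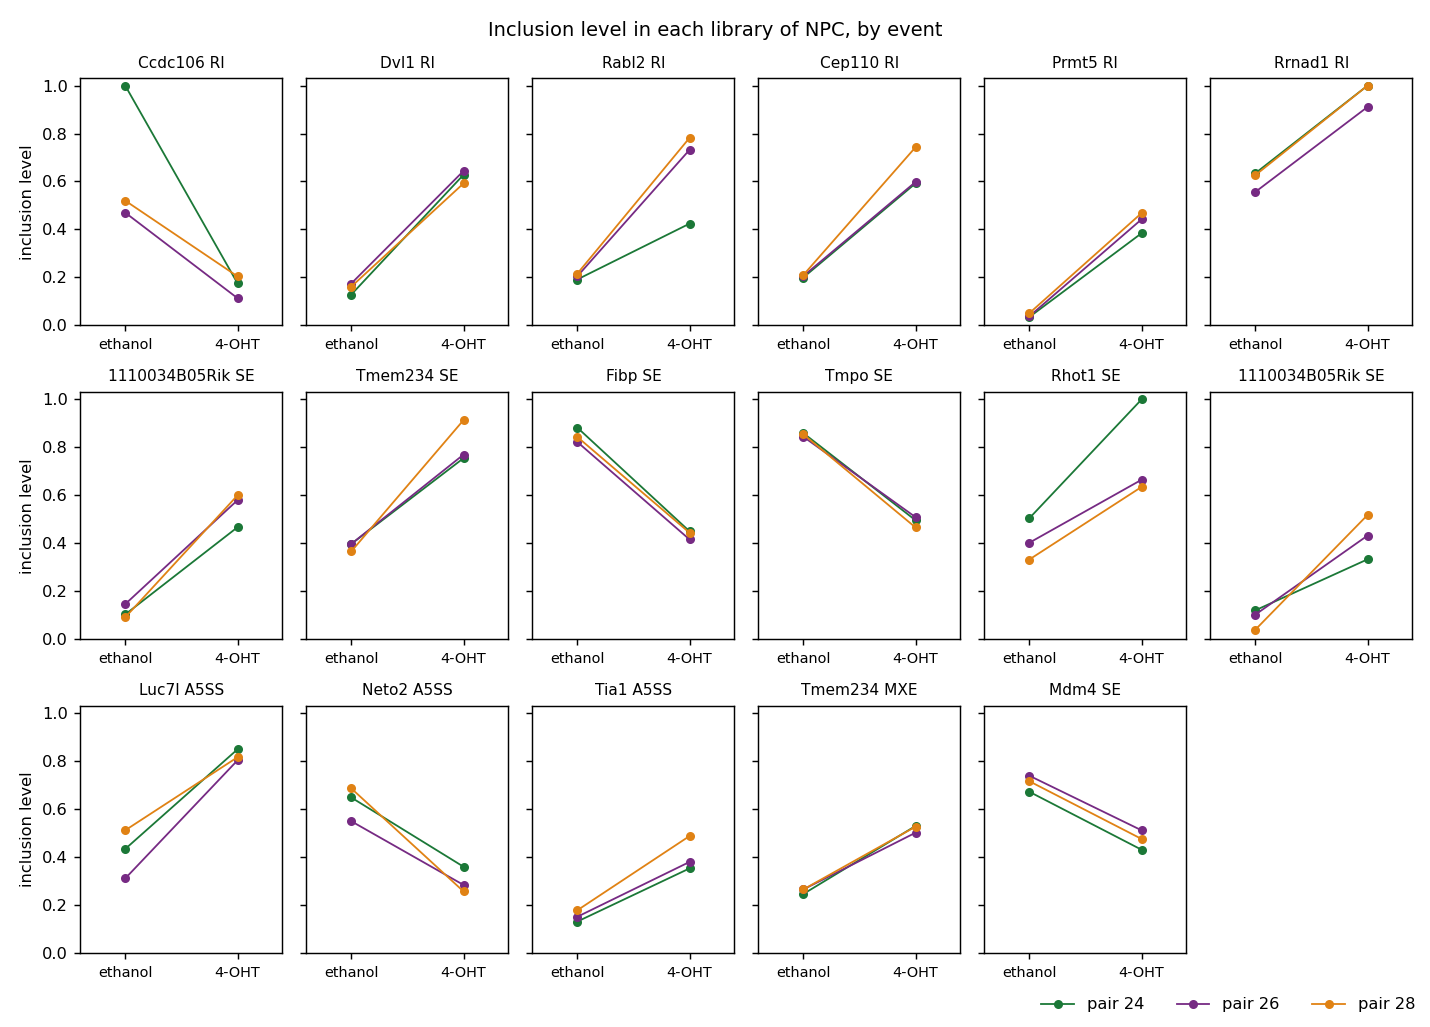
Inclusion level (vertical axis, from 0 to 1) with ethanol and with 4-OHT in each pair of libraries, for each named event (RI retained intron, SE skipped exon, A5SS alternative 5' splice site, MXE mutually exclusive exons). Lines join libraries of 1 pair code, and in every panel the 3 ethanol values lie on 1 side of the 3 4-OHT values, such as 0.128 to 0.174 against 0.592 to 0.644 for Dvl1. The listing itself favours this separation.

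Events and expression were listed together for 32 of the 222 genes with an event, with 40 events. Of the 12 genes with a retained intron of higher inclusion that are also listed for expression, 10 were lower, or 9 of 11 without Prmt5, where 43.4% of all listed genes and 68.1% of those at 20 RPKM or more were lower. Ankle1, a nuclease gene, fell from 9.40 to 3.06 RPKM while its intron went from a mean level of 0.442 to 0.819 in 2 pairs. The glutamine transporter gene Slc1a5 fell from 9.41 to 4.73 RPKM with an intron of 71 bases going from 0.345 to 1, and the helicase gene Ddx51 from 6.41 to 3.76 RPKM with an intron going from 0.054 to 0.330 in 3 pairs. Of 15 genes with an exon of lower inclusion 14 were lower, or 13 of 14 without Prmt5, against the same 43.4% and 68.1%. An example is Csad, of taurine synthesis, from 13.4 to 6.48 RPKM, and the exception was Mdm2, which rose (log2 1.08). The 3 genes with an exon of higher inclusion were higher, where 56.6% of all listed genes were, and 3 genes are few. Whether inclusion and expression are linked was not tested.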

How the data were processed

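Expression and splicing of total RNA were compared between 3 ethanol and 3 4-OHT libraries of NPC. Base calls came from CASAVA 1.8, alignment from TopHat2 2.03 with Bowtie2 2.0.0.6 to mm9, and expression from Cuffdiff 2.02, per the submitters' processing notes. The version of MATS is not given in the sources used here. The authors deposited 1 RPKM value for each arm, a log2 fold change and an unadjusted p-value per gene. Some genes carry several symbols and count as 1 locus, and 10 genes at 0 RPKM with ethanol have no fold. For splicing the authors deposited, per the file headers, the read count of each form and the inclusion level as a fraction, with a p-value per pair. A gene's log2 was recomputed from RPKM and differed from the deposited value by at most 1.18e-05.

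The members and gene lists were chosen with earlier results of these data known. Genes were named by rule: where the higher arm reached 20 RPKM, the 12 largest rises and falls, and per list or role up to 4 listed genes by absolute log2 at 1 RPKM or more, with exceptions to the majority. Further list members, and the genes of highest RPKM, were named after their values were seen. Some genes that the rule names are not reported here. Events were named by the largest mean difference, up to 6 a class, among those in 3 pairs with at least 20 reads in each arm of each pair, the Prmt5 exon left out. Since the deposited p-values are unadjusted, the Benjamini-Hochberg adjustment was bounded from above, with 55341 symbols counted as tested.

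Event positions are mm9. Events were matched to GENCODE (GRCm38) by exon and intron lengths within a gene, for 80 of 82 retained introns and 129 of 135 skipped exons. Pair codes match no label. Over 57 events, libraries with the same code deviated together with correlations of 0.177, 0.160 and 0.123, in events whose listing favours this, so the codes were kept as a replicate block. Exact tests were checked on simulated data. Python 3.11.15, numpy 2.4.6, pandas 2.3.3 and scipy 1.17.1 were used. The fibroblast tables were not used here.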

Additional observations from a re-analysis of the deposited data

How the results depend on the processing

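The counts of genes depended on the limits set on the deposited list. Of the 1367 higher genes, 824 had at least 1 RPKM and 461 at least 5 RPKM in the higher arm, 680 an absolute log2 of at least 1, and 576 stayed past 1.5-fold with a pseudocount of 1. Of the 1049 lower genes, 181 had an absolute log2 of at least 1 and 664 stayed past 1.5-fold with a pseudocount of 1. By the upper bound of the adjusted p (Benjamini-Hochberg on Cuffdiff p-values), 947 higher and 835 lower genes were under 0.05. Some genes named above were not, such as Dusp5, Smad9 and Ccnd1, with bounds of 0.566, 0.732 and 0.103. Across gene lists, 13 shares of higher genes were classed as moved and 56 as not. These classes do not follow the size of the change. With an absolute log2 of at least 1, Wnt went from 71.4% to 50% and was classed as not moved. By the same limit p53 went from 96.7% to 100% and was classed as moved. With an absolute log2 of at least 1, the share higher was 42.9% for DNA repair, 0% for the G1, Notch and spliceosome lists and 100% for the Hedgehog, interferon, oligodendrocyte and p53 lists. That limit left 680 higher and 181 lower genes of all those listed. Some of these shares rest on few genes: Shh alone for Hedgehog, Prmt5 and Gemin6 for the spliceosome, and Hes5, Nrarp and Mfng for Notch. At 5 RPKM or more the share higher was 33.3% for interferon, 57.1% for matrix and adhesion and 100% for oligodendrocyte markers. It was 0% for Hedgehog, where Cdon alone remained, and the Hedgehog share was also 0% at 1 RPKM.

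Retained introns with higher inclusion numbered 50 with at least 50 reads in each arm, 26 in 3 pairs and 51 with a mean difference over 0.3, and those with lower inclusion numbered 1 with at least 50 reads, 1 in 3 pairs and 1 without events that have a form at 0 reads in an arm, an alternative chosen after seeing the data. Skipped exons with higher inclusion numbered 17 with at least 50 reads and 9 in 3 pairs, and those with lower inclusion 46 with at least 50 reads, 18 in 3 pairs and 55 with a mean difference over 0.3. Leaving out 1 pair keeps only events listed in both other pairs, by construction: 36 to 57 of 79 higher and 1 to 2 of 3 lower retained introns, and 18 to 28 of 51 higher and 34 to 44 of 84 lower skipped exons. The fewest retained introns were left without pair 28 (36) and pair 26 (38).

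With the replicate block, an exact sign-flip over pairs, the Mdm4 difference stayed at -0.24 with p = 0.25, the smallest that 3 pairs allow, and 59 events kept all pairs on 1 side. The listing favours both results, since no listed event has pairs that differ in sign, so neither adds support. Leaving out 1 pair gave Mdm4 differences from -0.24 to -0.23. Depth limits the event levels: 58 events had an arm with under 20 reads, and for genes the depth is unknown.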

Other observations

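Gene families taken by the start of their symbols, grouped after the values were seen, held 25 with at least 5 listed genes. Solute carriers (Slc) had 42 of 56 listed genes higher, or 24 of 34 where the higher arm reached 1 RPKM, and potassium channel genes (Kcn) 22 of 26, or 9 of 13. Sodium channel genes (Scn) were higher in 9 of 9, but 2 reached 1 RPKM. Cytochrome P450 genes (Cyp), with roles in oxidising sterols and foreign compounds, were higher in 9 of 9, and aldehyde dehydrogenase genes (Aldh) in 7 of 7, with 5 of each at 1 RPKM or more. Collagen genes (Col) were higher in 8 of 8, of which 4 reached 1 RPKM. Kinesin genes (Kif), which encode motors of the spindle and of transport, were lower in 12 of 13, and zinc finger genes (Zfp) were split, 7 higher and 8 lower. Among all listed genes 56.6% were higher, and among those under 1 RPKM in the higher arm 80.6%. Where the higher arm reached 20 RPKM, 68.1% were lower.

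In 54 events a form had 0 reads in every listed library of an arm. The exclusion form was at 0 with 4-OHT in 11 retained introns and 14 skipped exons, and at 0 with ethanol in 2 retained introns and 15 skipped exons, besides an exon of Chchd2 in which inclusion reads were also at 0 with 4-OHT. In the second intron of Chtop, listed as 2500003M10Rik, exclusion reads went from 109 to 0 and inclusion reads from 9736 to 12576 over 2 pairs. Chtop encodes a protein that binds the methyltransferase PRMT1. In Lrif1, listed as 4933421E11Rik, exclusion reads went from 29 to 0 and inclusion reads from 108 to 128. These events were picked out after their values were seen.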
